A study of Mus musculus with 78 samples.

Results

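The libraries described here come from the prefrontal cortex of mice that lack ACSS2 (KO) and of mice with the enzyme (WT). They were chosen by the region named in the sample titles of both deposited count tables, and comprise 7 of the 78 libraries of the series: KO mice 1, 4, 5 and 6 against WT mice 3, 11 and 12. An eighth prefrontal cortex library, labelled as WT female mouse 23, was left out because its sex-linked genes went against its label. The series as a whole covers 7 brain regions and 12 mice, with messenger RNA selected by its poly(A) tail. The KO is a constitutive deletion made in C57BL6/J embryos with a pair of CRISPR guides placed in the introns before exon 3 and after exon 7 of Acss2, so that every cell of the animal carries it. KO mice 4, 5 and 6 and WT mouse 11 are female, and KO mouse 1 and WT mice 3 and 12 are male. All were adult, housed singly and went through the drinking-in-the-dark protocol, which gives rise to bouts of heavy intake: after 1 week of habituation, ethanol at 15% by volume and water were offered for 2 h on each of days 1 to 3 and 4 h on day 4, and in the following week ethanol was offered without water. KO and WT mice thus share the ethanol history, and no group without ethanol was analysed here. The female counts were deposited in a separate table from the male counts, so that sex and table cannot be told apart.

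ACSS2 joins acetate to coenzyme A, and in the brain part of that acetate comes from the breakdown of ethanol in the liver. In neurons the enzyme is found in the nucleus as well as the cytosol, where the acetyl-CoA it makes can be used to acetylate histones. Acetate is also a building block of lipids, myelin among them. The prefrontal cortex borders on the white matter of the corpus callosum, the striatum, the stalk of the olfactory bulb and the meninges, and each of these tissues has a characteristic set of transcripts. Myelin is made by oligodendrocytes, whose most abundant transcripts encode the proteins of the sheath. Striatal projection neurons are marked by dopamine and adenosine receptors and by the signalling proteins downstream of them.

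Acss2 (ENSMUSG00000027605.18) lies on chromosome 2 from 155517948 to 155585724 on the forward strand of GRCm38. In GENCODE M21 the transcript Acss2-201 has 18 exons and 2931 bases. Exons 3 to 7 of it span 155549191 to 155550469 and hold 460 bases, all coding, which is 15.69% of the transcript and no whole number of codons. The borders of the deleted stretch in the spliced transcript are shown because they define what the KO allele can still be counted on. Each line gives 30 bases on either side of a splice junction, from GENCODE M21, with the bases of the deleted exons in capitals.
exon 2 to exon 3: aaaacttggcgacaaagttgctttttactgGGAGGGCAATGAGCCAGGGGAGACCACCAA
exon 7 to exon 8: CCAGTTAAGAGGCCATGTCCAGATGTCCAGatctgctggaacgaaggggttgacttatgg

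The targeted gene was read first, as a check of the labels. Acss2 was at 7.91, 12.7, 7.10 and 7.32 CPM (the counts of a gene after scaling each library to one total) in KO mice 1, 4, 5 and 6. It was at 50.02, 52.2 and 45.5 CPM in WT mice 3, 11 and 12. All KO libraries were below all WT libraries, and the KO mean of 8.75 ± 2.64 CPM (SD, n = 4) was 17.8% of the WT mean of 49.3 ± 3.42 CPM (SD, n = 3). On the log2 scale KO differed from WT by -2.57 ± 0.27 (SE; adjusted p = 0.000811, edgeR's quasi-likelihood test). The difference was of like size in the sexes taken alone, at -2.57 in females and -2.57 in males. The library of mouse 23 had 67.3 CPM, on the WT side, which bears on its genotype label but not on its sex: it held 73.4 CPM of the Y-linked gene Ddx3y and no count of Xist, the transcript of the inactive X, while the 4 female libraries used had 679 to 855 CPM of Xist and none of Ddx3y.

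Depth ran from 944634 to 1228828 counts per library among the 7, so that 3 counts, the smallest value taken as a level, correspond to 2.44 to 3.18 CPM. Replicates of a genotype differed by 2.14 to 6.49 times the sampling noise per gene in 9 pairs, and no pair looked like a library deposited more than once. The labels give a separate mouse for each library. The label of the tissue was checked on cortical genes. Slc17a7, the vesicular glutamate transporter of cortical excitatory neurons, was at 1453 ± 170.1 CPM in KO (SD, n = 4) and 1544 ± 86.7 CPM in WT (SD, n = 3), with a log2 fold change of -0.06. The mean level of 23 cortical excitatory genes overlapped between genotypes, from 6.24 to 6.59 in KO and from 6.20 to 6.65 in WT as a mean of log2 CPM. Cortex libraries lay between 6.70 and 7.01 and the median of dorsal striatum was 4.98. In other regions, 4 libraries had striatal gene levels that go against their region label, and 2 of them are WT striatal libraries that serve as a reference below. The main results that rest on them are given with and without them, and the others only with them.

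Across 11956 genes tested, 76 differed between KO and WT at an adjusted p under 0.05 in edgeR's quasi-likelihood test with sex as a term, 22 higher and 54 lower in KO. That is 0.636% of the genes tested in all, 0.184% for higher and 0.452% for lower. At an unadjusted p under 0.05 the number was 1144. The median log2 fold change over all genes was 0.0065. The size of the call list moved with single libraries: it held 0 genes without WT mouse 11, the lone WT female, 304 without WT mouse 12, 134 without WT mouse 3, 23 without KO mouse 4, 33 without KO mouse 5 and 45 without KO mouse 6. With the doubted library of mouse 23 added to WT, 11 of 11894 genes were called (0.0925%), 9 higher (0.0757%) and 2 lower (0.0168%), all of them among the 76. Since these are bulk tissue libraries, fewer cells of a type and less RNA per cell cannot be told apart in any result that follows.

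The genes higher in KO were chiefly genes of striatal projection neurons. Of 38 striatal genes tested in 4 lists (receptors, neuropeptides, signalling proteins, transcription factors), 12 rose, none fell and 33 had a fold change above 0, with a median of 1.13. Over all genes tested, 0.184% rose. The CPM ranges of KO and WT did not overlap for 17 of the 38, all higher in KO, while 7.89% of all genes did not overlap, 3.98% being higher and 3.91% lower in KO. With mouse 23 in the fit, 7 of the 38 were called, and 0 without WT mouse 11 or 5 without KO mouse 1. The lists' mean level did not overlap between genotypes, running from 5.08 to 6.41 log2 CPM in KO and from 4.36 to 4.59 in WT, with 4.67 in mouse 23.

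Among the receptors, 4 of 7 rose. Drd2, the D2 dopamine receptor of the indirect pathway, was at 46.6, 11.6, 73.7 and 26.9 CPM in KO mice 1, 4, 5 and 6 and at 0, 0.82 and 3.18 CPM in WT mice 3, 11 and 12. KO mice 5 and 1 were highest and KO mouse 4 lowest, and the groups did not overlap, although mouse 23, at 12.2 CPM, was above KO mouse 4. The log2 fold change was 5.01 ± 0.81 (adjusted p = 0.0137, edgeR), and 3.46 with an adjusted p of 0.0653 when mouse 23 was added. Adora2a, an adenosine receptor that shares those neurons, ran from 26.04 to 66.6 CPM in KO and from 2.83 to 8.98 CPM in WT (2.90 ± 0.48, adjusted p = 0.0151, edgeR). Drd1, the D1 receptor of the direct pathway, ran from 29.3 to 95.9 CPM in KO and from 4.08 to 15.9 CPM in WT (2.89 ± 0.49, adjusted p = 0.0163). Receptors of either output pathway were thus among the genes that rose, and KO mouse 5 held the highest value of Drd2, Adora2a and Drd1.

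Of the 3 neuropeptide genes, only Tac1, which encodes substance P, passed the test. It was at 86.1, 26.4, 59.5 and 35.8 CPM in KO and at 10.4, 4.90 and 20.1 CPM in WT, with 30.6 CPM in mouse 23 (log2 fold change 2.67 ± 0.35, adjusted p = 0.0039, edgeR). With mouse 23 in the fit it did not pass, at 1.88 and an adjusted p of 0.0806. Penk, the enkephalin precursor, overlapped between genotypes at 92.9 to 342 CPM against 74.3 to 159 CPM and did not pass (1.11 ± 0.39, adjusted p = 0.287). Pdyn, the dynorphin precursor, had a log2 fold change of 1.48 ± 0.43 with an adjusted p of 0.161.

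Among the signalling proteins, 6 of 18 rose. Ppp1r1b encodes DARPP-32, the phosphatase inhibitor through which dopamine receptors act on striatal neurons, and is also expressed at a low level in deep cortical layers. It was at 423, 233, 592 and 230 CPM in KO mice 1, 4, 5 and 6 and at 46.2, 49.0 and 102 CPM in WT mice 3, 11 and 12, so that the groups were well apart (2.67 ± 0.37, adjusted p = 0.0039, edgeR). It held with mouse 23 in the fit, where 116 CPM was the highest WT value, at 2.29 and an adjusted p of 0.0123. Rgs9, a brake on dopamine receptor signalling, ran from 54.5 to 148 CPM in KO and from 8.16 to 24.5 CPM in WT (2.87 ± 0.41, adjusted p = 0.00394), and held with mouse 23 at 2.61. Scn4b, a sodium channel subunit, and Lrrc10b had log2 fold changes of 2.22 ± 0.44 and 3.37 ± 0.68. Scn4b did not pass in DESeq2 (adjusted p = 0.175), nor did Lrrc10b (adjusted p = 0.0863), which also missed the threshold with mouse 23 (adjusted p = 0.0653, edgeR). The more abundant members of the list that cortex expresses as well did not pass: Arpp21 had a log2 fold change of 0.29, Adcy5, the main striatal adenylyl cyclase, 0.87, and Gnal, its stimulating G protein, 0.59.

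Striatal transcription factors were mixed. Only Foxp2, named after its value was seen, passed, at 26.9 to 55.0 CPM in KO against 7.35 to 12.7 CPM in WT (2.05 ± 0.37, adjusted p = 0.0186, edgeR). Bcl11b, also a factor of deep cortical neurons, had a log2 fold change of 1.17 with an adjusted p of 0.0842, and Foxp1 of 0.51. Meis2, which the olfactory bulb expresses as well, had -0.68, with its highest value of 634 CPM in WT mouse 3. The CPM ranges of Bcl11b and Meis2 overlapped between the genotypes.

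**Figure D1:**
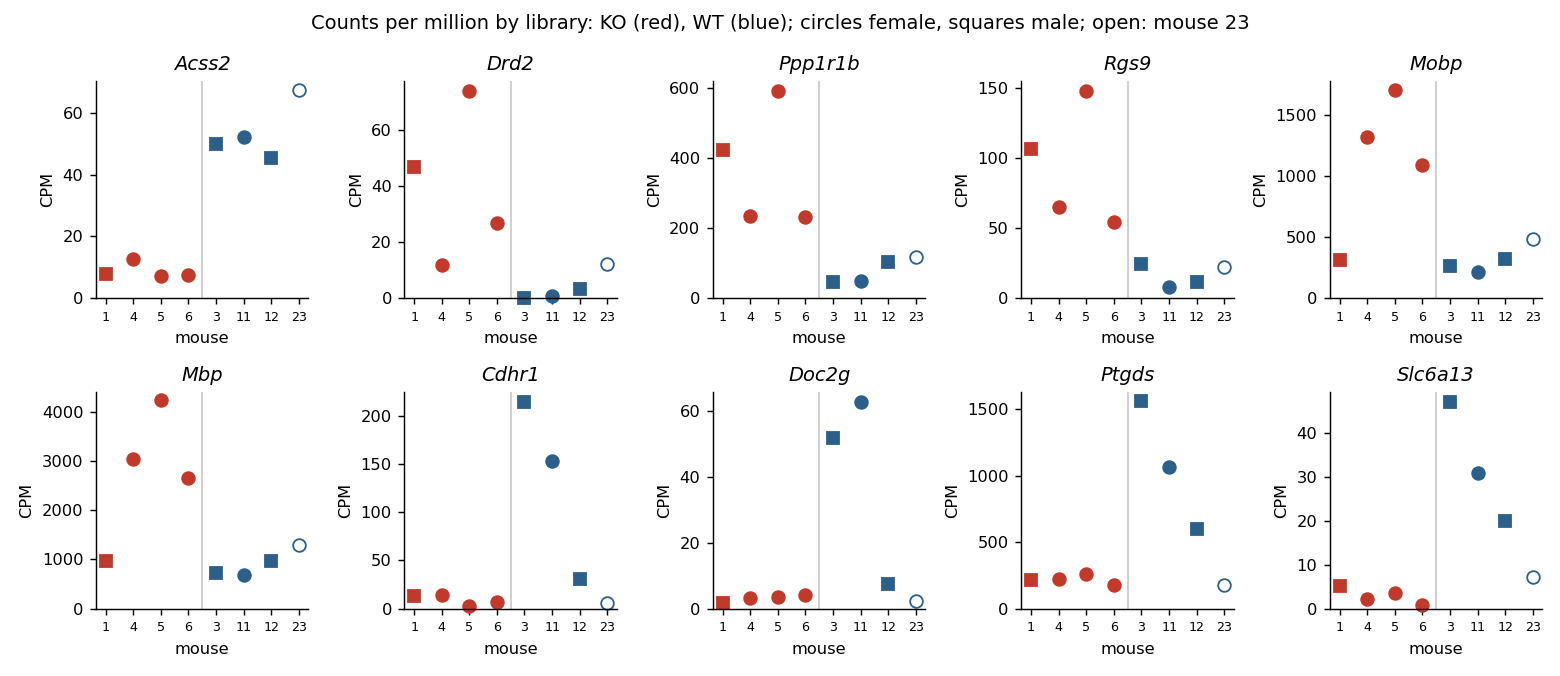
CPM of 10 genes in each prefrontal cortex library, plotted by mouse, on linear axes that start at 0. KO libraries are red and WT blue, circles are female and squares male, and the open circle is the doubted library of mouse 23, which is in no fit unless stated; each point is 1 library, so that no error bar is drawn. Drd2, Ppp1r1b and Rgs9 are higher in all 4 KO libraries than in WT mice 3, 11 and 12, Mobp and Mbp in only the 3 female KO libraries, and Cdhr1 and Doc2g peak in WT mice 3 and 11.

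To set these values on a scale, the striatal genes that exceed cortex at least 4-fold in WT libraries were expressed as a percentage of their level in WT striatum. The median over 29 such genes was 37.6% in KO mouse 1, 18.1% in KO mouse 4, 48.1% in KO mouse 5 and 19.3% in KO mouse 6. It was 10.8% in WT mouse 3, 8.94% in WT mouse 11, 8.74% in WT mouse 12 and 8.999% in mouse 23. Cortex libraries of the series lay between 5.48% and 15.6% (n = 11), so that KO mice 4 and 6 were just above the cortex range and KO mice 1 and 5 far above it. Without the 2 WT striatal libraries that go against their label, 36 genes met the criterion and the KO libraries were at 31.002%, 15.5%, 39.8% and 16.3%, the WT libraries at 8.33% to 10.3% and the cortex libraries at 6.02% to 16.7%, which then takes in KO mice 4 and 6.

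In their mean level, myelin genes were higher in the female KO libraries and not in the male one. Of 48 myelin and oligodendrocyte genes tested in 4 lists, 2 rose, none fell and 47 had a fold change above 0, with a median of 1.05. Over all genes tested, 0.184% rose. The CPM ranges did not overlap for 19 of the 48, all higher in KO, beside 3.98% of all genes. For those 19 the male KO library was thus also above every WT library. The mean level of the lists was 6.25, 6.73 and 6.08 log2 CPM in the female KO mice 4, 5 and 6, and 4.97 in the male KO mouse 1. It was 4.71, 4.68 and 4.996 in WT mice 3, 11 and 12 and 5.17 in mouse 23. In this mean KO mouse 1 thus lay within the WT range, and the genotypes overlapped. Calls in the lists numbered 0 without WT mouse 11, KO mouse 4, KO mouse 5 or KO mouse 6, 24 without KO mouse 1, 19 without WT mouse 12 and 9 without WT mouse 3, and the median was 0.20 without WT mouse 11 and 1.74 without KO mouse 1.

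The genes of the sheath itself had the highest median of the 4 lists within females, 2.20 over 16 genes. Within males their median was 0.34, with 13 of the 16 above 0. Mbp, which encodes the myelin basic protein that compacts the sheath, was at 968 CPM in KO mouse 1 and at 3051, 4231 and 2650.5 CPM in KO mice 4, 5 and 6, against 731, 691 and 973 CPM in WT mice 3, 11 and 12. Over both sexes its log2 fold change was 1.26 ± 0.37 (adjusted p = 0.165, edgeR). Mobp, another compact-myelin protein, was at 314, 1319.95, 1701 and 1089.7 CPM in the KO mice and at 265, 216 and 322 CPM in WT (1.43 ± 0.43, adjusted p = 0.183). Neither passed over both sexes. The 2 members of the 4 lists that did, named after their values were seen, were Mog, a protein of the outer surface of the sheath, at 1.64 ± 0.35 (adjusted p = 0.0493), and Tmem88b, at 1.54 ± 0.33 (adjusted p = 0.0467). Both were also highest in the 3 female KO libraries.

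Oligodendrocyte enzymes and carriers had smaller medians, 0.92 over 11 enzymes and 0.97 over 14 genes of transport, stress and signalling, beside 1.35 over the 16 myelin proteins. Ugt8a, which makes the galactolipids of myelin, had a log2 fold change of 1.09 ± 0.56, Qdpr, a pteridine reductase, 1.01 ± 0.23 (adjusted p = 0.0698, edgeR) and Car2, carbonic anhydrase, 0.34 ± 0.21. Trf, transferrin, was at 163, 508, 662 and 458 CPM in KO and 131, 93.1 and 150 CPM in WT. Apod, the 1 member of the 48 with a fold change below 0, had -0.64 ± 0.26, and Efnb3, an ephrin of the same list, 1.01 (adjusted p = 0.122). Among the transcription factors of the lineage, none was called: Olig1 had 0.31 and Sox10 0.38, while Myrf, which drives the myelin genes, had 1.18 ± 0.32 (adjusted p = 0.125). Genes of oligodendrocyte precursors were split, with 5 of 10 above 0, none called and a median of 0.0048, and their member with the smallest p was Matn4 at -0.57 (adjusted p = 0.592).

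The start of Mobp is shown because its promoter is dense in the letters that SOX factors bind, and Sox10 is the SOX factor of the lineage. The line gives the 250 bases before the start of the gene on chr9:120149492-120149741, forward strand, from RefSeq on GRCm38.p6, with matches to ACAAAG or its reverse complement CTTTGT in capitals.
Mobp: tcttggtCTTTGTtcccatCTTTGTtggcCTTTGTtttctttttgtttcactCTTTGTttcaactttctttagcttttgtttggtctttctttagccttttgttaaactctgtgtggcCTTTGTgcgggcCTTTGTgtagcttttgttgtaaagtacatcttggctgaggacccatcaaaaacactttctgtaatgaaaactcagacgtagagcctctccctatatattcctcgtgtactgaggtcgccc
There were 6 matches in this window and 1 in that of Cnp, another myelin gene, while 16.5% of 27025 promoters of the same length hold at least 1. A match is a description of the letters and not a site shown to be bound.

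Within females, with 3 KO libraries against the single WT library of mouse 11, 105 genes were called (0.878% of 11956), 66 higher (0.552%) and 39 lower (0.326%). The lone WT library is assumed to vary like the other groups in this fit. Of the 48 myelin genes 24 rose, 11 of them among the 16 myelin proteins, and the median was 1.74. Mobp had a log2 fold change of 2.64 ± 0.29 (adjusted p = 0.0011, edgeR) and Mbp of 2.24 ± 0.30 (adjusted p = 0.00313). Of the 38 striatal genes 5 rose in females, with a median of 1.08. With mouse 23 added as a female, 32 genes were called, 30 higher and 2 lower, 19 of them myelin genes. The count was 40 without KO mouse 4, 37 without KO mouse 5, 318 without WT mouse 12 and 314 without WT mouse 3, the last 2 entering only through the shared spread.

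Within males, with KO mouse 1 against WT mice 3 and 12, edgeR called 0 of 11956 genes (0%), with 619 at an unadjusted p under 0.05, and DESeq2 also called 0. The count was 195 without WT mouse 12, 3 without WT mouse 3 and 7, all of the striatal lists, without KO mouse 5. The median of the myelin lists was 0.20 and that of the striatal lists 1.28. Mobp had a male log2 fold change of 0.11 ± 0.27 and Mbp of 0.19 ± 0.28, while Ppp1r1b had 2.54 ± 0.48 (adjusted p = 0.131) and Rgs9 2.54 ± 0.52 (adjusted p = 0.166). The striatal medians were thus 1.08 in females and 1.28 in males, and the myelin medians 1.74 and 0.20.

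The difference between the sexes was tested directly. edgeR called 0 of 11956 genes (0%), with 552 at an unadjusted p under 0.05. The smallest adjusted p was that of Mobp, at a female minus male log2 difference of 2.53 ± 0.39 (adjusted p = 0.113). DESeq2 called 6 genes, all of them in the myelin lists and all higher in females. The count in edgeR was 33 without WT mouse 12 and 16 without WT mouse 3. Since the male arm rests on 1 KO library and the female arm on 1 WT library, the sex of an animal and the features of a single library cannot be told apart here.

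**Figure D2:**
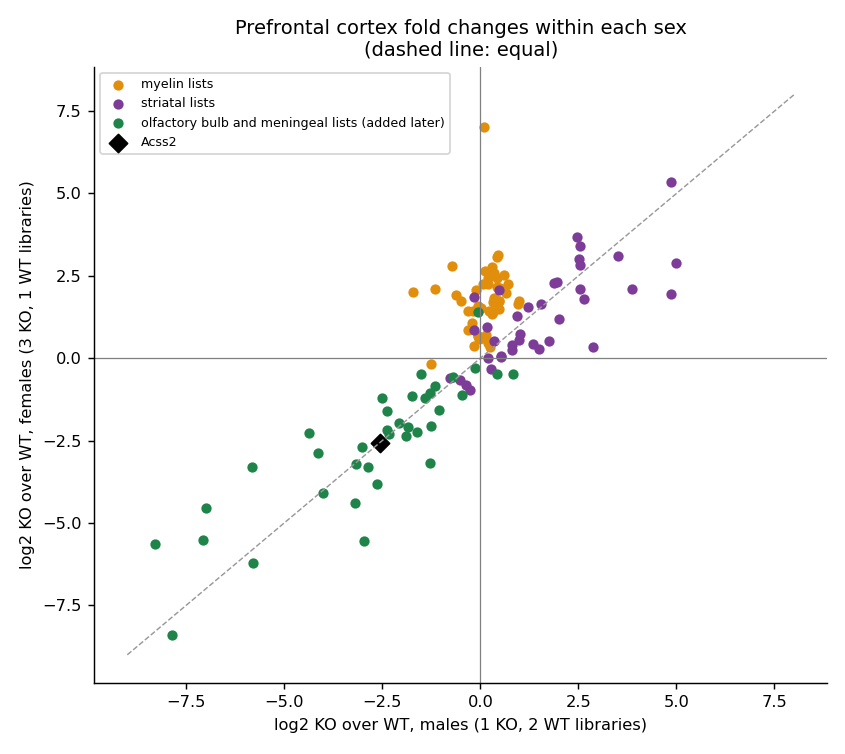
Log2 fold change of KO over WT within females (vertical) against that within males (horizontal) for each gene of the myelin lists (orange), the striatal lists (purple) and the olfactory bulb and meningeal lists written after the calls were seen (green), with Acss2 as a black diamond. The dashed line marks equal values; myelin genes stand above it near a male value of 0, with medians of 1.74 and 0.20, while the striatal medians are 1.08 and 1.28.

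None of the 54 genes lower in KO was in a myelin or striatal list, which is not unusual since those lists hold 0.719% of all genes tested. Some are known from the olfactory bulb or from the meninges, and a list of genes of each was written after the calls had been seen, so that their counts describe the calls and are no support for them. Of 19 olfactory bulb genes tested, 10 were among the lower calls, with a median of -3.18 over the list. Of 18 meningeal and perivascular fibroblast genes tested, 9 were, none had a fold change above 0, and the median was -1.97. Lower calls were 0.452% of all genes tested. The 2 lists together account for 19 of the 54, and 35 were in neither.

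Olfactory bulb genes were high in WT mice 3 and 11, lower in WT mouse 12 and lowest in KO. Eomes, a T-box factor of the bulb's mitral and tufted cells, was at 49.1, 37.5 and 3.18 CPM in WT mice 3, 11 and 12 and had no count in any KO library, which makes it at least 10.98-fold lower when 3 counts in each KO library are taken as the floor. Cdhr1, a cadherin of those output neurons, was at 214, 153 and 30.7 CPM in WT and at 13.2, 13.7, 2.66 and 6.51 CPM in KO (-3.93 ± 0.55, adjusted p = 0.0039, edgeR). Doc2g, of the double C2 domain family, was at 51.9, 62.9 and 7.41 CPM in WT and at 1.76 to 4.07 CPM in KO (-4.07 ± 0.55, adjusted p = 0.0039). Omp, the marker of olfactory receptor axons that enter the bulb, ran from 3.18 to 32.7 CPM in WT and from 0 to 1.76 CPM in KO, and Th, the dopamine-synthesis enzyme of the bulb's glomerular cells, from 8.47 to 71.7 CPM against 4.22 to 6.51 CPM. Lgr5 held 118 counts over the WT libraries and 2 over the KO libraries, a ratio of 81.1 with a 95% counting interval of 21.97 to 678. Ms4a15 held 55 and 1, a ratio of 75.6 with an interval of 13.02 to 3041, and Shisa3 held 50 and 2, a ratio of 34.4 with an interval of 9.03 to 292. These intervals come from pooled counts and leave out the spread between mice. In DESeq2's test Eomes (adjusted p = 0.217), Lgr5 (adjusted p = 0.191) and Ms4a15 (adjusted p = 0.123) did not pass. Shisa3 (adjusted p = 0.0151), Cdhr1, Doc2g and Omp passed there. Other large decreases were in neither list: Vipr2, a receptor for vasoactive intestinal peptide, held 53 and 3 counts, Frmd7 had a log2 fold change of -4.27 ± 0.88 and Shisa8 of -3.35 ± 0.65. Frmd7 and Shisa8 were likewise highest in WT mouse 3.

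The doubted WT library went with KO for these genes: in mouse 23 Eomes, Omp and Ms4a15 had no count, Cdhr1 was at 6.12 CPM and Doc2g at 2.45 CPM. With it in the fit, the adjusted p of Cdhr1 was 0.0918, that of Doc2g 0.0932 and that of Eomes 0.115. The mean level of the olfactory bulb list was 5.73, 5.53 and 3.40 log2 CPM in WT mice 3, 11 and 12, between 2.45 and 2.81 in KO, 2.16 in mouse 23 and between 1.95 and 2.56 in the 11 cortex libraries. WT mice 3 and 11 stood furthest apart, and WT mouse 12 was also above all KO and cortex libraries. KO mice 1 and 4, at 2.72 and 2.81, were just above the cortex range, and KO mice 5 and 6 within it. Genes of the bulb's granule cells and migrating neuroblasts, from another list, were highest in WT mouse 3 as well, at 5.36 log2 CPM, but KO, at 4.05 to 4.84, overlapped WT, and 2 of 11 were called: Synpr, a synaptic vesicle protein, was lower (-1.48 ± 0.25, adjusted p = 0.0163, edgeR) and Thbs4, a matrix protein, higher (2.86 ± 0.46, adjusted p = 0.0137). Thbs4 held with mouse 23 in the fit, at 2.51 and an adjusted p of 0.0178.

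The promoter of Doc2g is shown with the letters that T-box factors bind. Eomes and Tbx21, both T-box factors of the same cells, were at 0 counts in every KO library. Over the WT libraries they held 101 and 23 counts. The line gives the 250 bases before the start of the gene on chr19:4003135-4003384, forward strand, from RefSeq on GRCm38.p6, with matches to AGGTGT or its reverse complement ACACCT in capitals.
Doc2g: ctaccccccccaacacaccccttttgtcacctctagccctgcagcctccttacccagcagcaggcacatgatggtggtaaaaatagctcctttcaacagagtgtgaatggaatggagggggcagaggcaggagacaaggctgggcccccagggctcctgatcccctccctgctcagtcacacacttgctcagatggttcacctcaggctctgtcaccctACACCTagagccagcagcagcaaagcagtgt
There was 1 match in this window and none in that of Cdhr1, and 12% of 27025 promoters of the same length hold at least 1. The match describes the letters alone, and whether either factor acts on Doc2g was not tested.

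Meningeal genes were lower in every KO library. Ptgds, the prostaglandin D synthase made by the leptomeninges, was at 213, 226, 257 and 179 CPM in KO mice 1, 4, 5 and 6 and at 1562, 1064 and 597 CPM in WT mice 3, 11 and 12 (-2.31 ± 0.25, adjusted p = 0.000811, edgeR). The groups did not overlap, but mouse 23, at 176 CPM, lay below all KO libraries, and with it the adjusted p was 0.101. Slc6a13, a GABA and taurine carrier of the meninges, was at 5.27, 2.11, 3.55 and 0.81 CPM in KO and at 47.2, 31.02 and 20.1 CPM in WT (-3.31 ± 0.47, adjusted p = 0.0039). It was at 7.34 CPM in mouse 23 and was 1 of the 2 lower calls that held with that library, at -2.97 and an adjusted p of 0.0457; Acss2 was the other. The mean level of the list was 2.02 to 3.15 log2 CPM in KO, 4.31 to 5.46 in WT and 3.33 in mouse 23, while the 11 cortex libraries lay between 2.21 and 3.42.

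**Figure D3:**
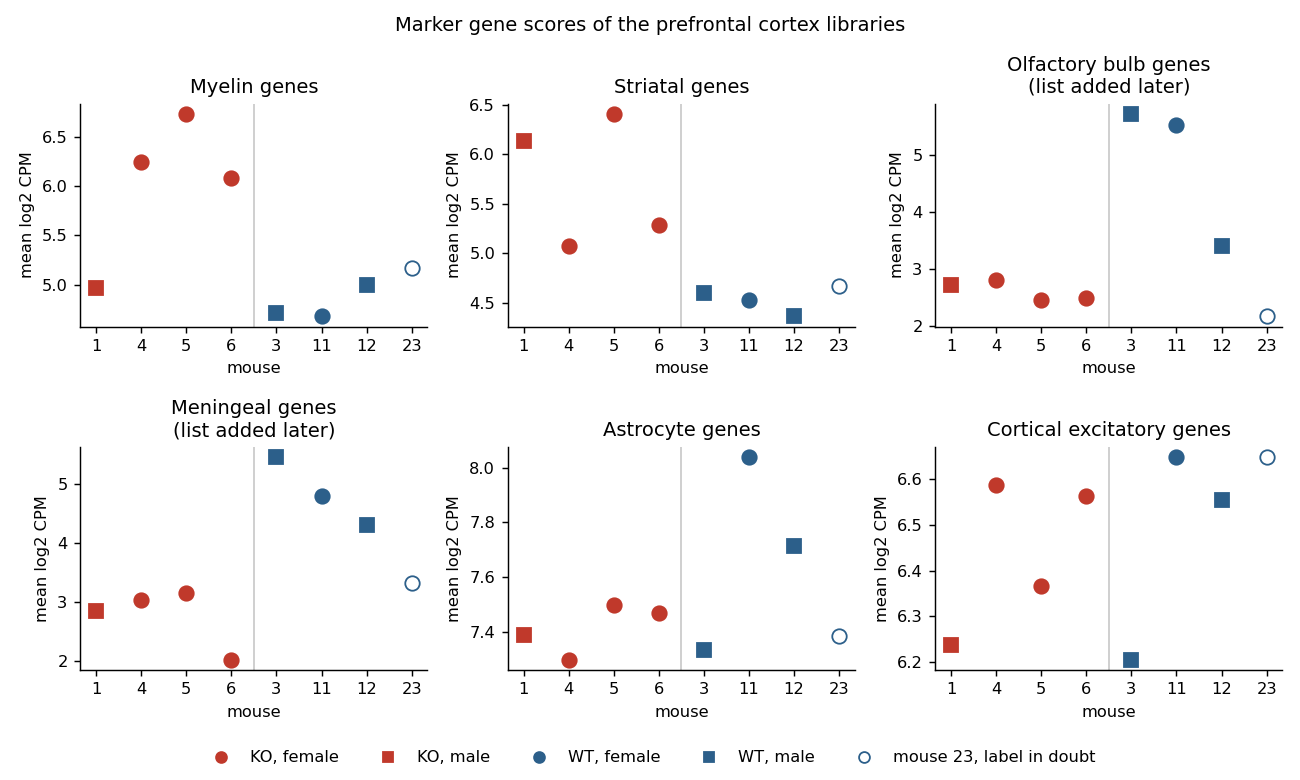
Mean log2 CPM of the genes of 6 lists in each prefrontal cortex library, plotted by mouse. KO libraries are red and WT blue, circles are female and squares male, the open circle is mouse 23, and each point is 1 library. Striatal genes separate KO (5.08 to 6.41) from WT (4.36 to 4.59), myelin genes separate the female KO libraries from the others, and the olfactory bulb and meningeal lists, written after the calls were seen, are higher in all WT libraries used than in KO, while mouse 23 is below all KO libraries for the olfactory bulb list (2.16) and just above them for the meningeal list (3.33).

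Lists of other cell types held 2 calls or fewer each. Over all genes tested, 0.452% were called lower and 0.184% higher. Endothelial and pericyte genes had 0 of 10 above 0, no call, a median of -0.48 and mean levels that did not overlap, at 5.21 to 5.39 in KO and 5.53 to 5.91 in WT. The member with the smallest p was Vtn, a pericyte gene, at -0.86 ± 0.20 (adjusted p = 0.0758, edgeR). Ependymal genes lay the other way, with a median log2 fold change of 2.40 over 4 genes, above those of the myelin and striatal lists, and no call. Their mean level was 1.92 to 4.51 in KO and 0.34 to 1.32 in WT, with no overlap, and 0.86 in mouse 23. Their member with the smallest p, Ccdc153, held 34 counts over KO and 1 over WT, a ratio of 24.7 with a counting interval of 4.15 to 1005. Among 15 astrocyte genes 2 were above 0 and 1 fell, the water channel Aqp4, at 63.4 to 115 CPM in KO and 137 to 213 CPM in WT (-0.99 ± 0.22, adjusted p = 0.0493). Microglial genes had no call, and their member with the smallest p was Tmem119 at -0.65. Of 23 cortical excitatory genes 2 fell, Cux2, an upper-layer factor, at -1.12 ± 0.21 (adjusted p = 0.0259) and Rasgrf2, an exchange factor named after its value was seen, at -0.79 ± 0.17. Of 12 interneuron genes 1 was lower, Th, given above. Septal genes had no call and a median of 0.0035, with Dgkg at 0.55. Of the 4 choroid plexus genes tested 1 was lower, Aqp1, with 3 counts over KO and 42 over WT. That is a ratio of 19.3 with a counting interval of 6.15 to 97.1.

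Genes were then placed on 2 gradients taken from libraries that the prefrontal cortex comparison does not use, though partly from the same mice. The first is the log2 ratio of striatum to cortex in 12 WT striatal and 5 WT cortex libraries. The second is the slope of a gene's level on the myelin score within groups over 70 libraries of the other regions. Both values were found for 11835 of the 11956 genes tested, and a missing value counts below as not passing a threshold. Of the 22 genes higher in KO, 20 were at least 2-fold higher in striatum than in cortex, and 6.46% of all genes tested were. Of the 54 genes lower in KO, 18 were at least 2-fold higher in cortex, beside 5.34% of all genes, and 7 at least 2-fold higher in striatum. A slope on the myelin score of at least 0.5 was found for 13 of the higher and 4 of the lower calls, and for 3.30% of all genes. Leaving out the 4 libraries that go against their region label gave 20 of 22 for striatum, beside 6.75% of all genes. For the myelin slope it gave 7 of 22 higher and 8 of 54 lower calls, beside 3.76% of all genes. Of the lower calls, 19 were then at least 2-fold higher in cortex, beside 6.08% of all genes, and 6 in striatum.

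The 2 gradients together took up 9.24% of the variance of the log2 fold changes across 11835 genes, and 30.9% across the 68 called genes that have both values. The striatal gradient alone took up 9.24% over all genes and 28.8% over called genes, and the myelin slope alone 2.54% and 21.3%. Among the 46 lower calls the relation ran opposite to the overall one, with a striatal coefficient of -0.30 and a share of 25.2% for both gradients, against 0.21 and 19.7% among the 22 higher calls and a coefficient of 0.19 over all genes. Without the 4 libraries against their label, both gradients took up 9.81% and 32.7%, the striatal gradient alone 9.43% and 31.1%, and the myelin slope alone 0.0665% and 0.28%, so that the share of the myelin slope rests on those libraries. By sex, both gradients took up 12.2% of the variance within females and 1.02% within males, and without those libraries 12.4% and 2.45%. The share over both sexes was 1.09% without WT mouse 11, 4.52% without KO mouse 5 and 15.1% without WT mouse 3. The called genes were selected by these same fold changes. Their larger share was therefore in part set in advance, and nothing is drawn from it. All these shares are across genes, which are not independent replicates, and describe how the fold changes line up with regional differences. What makes them do so was not tested.

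**Figure D4:**
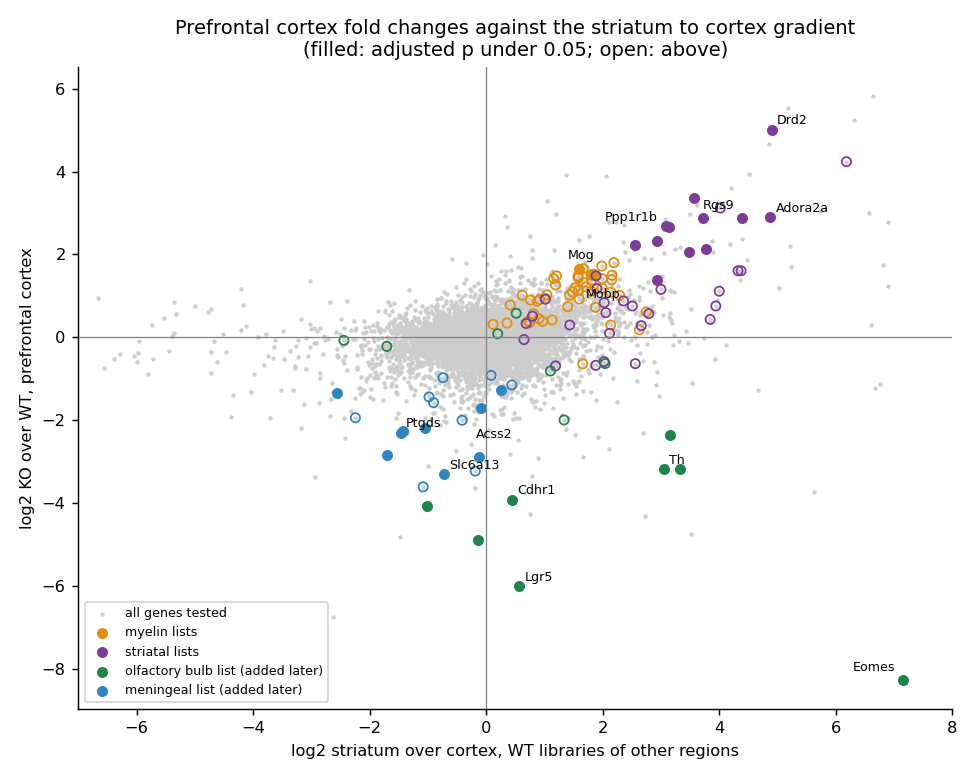
Log2 fold change of KO over WT in the prefrontal cortex (vertical) against log2 striatum over cortex in WT libraries of the other regions (horizontal), 1 point per gene tested that has a value on both axes. Grey points are all genes, orange myelin lists, purple striatal lists, green and blue the olfactory bulb and meningeal lists written after the calls were seen; filled points have an adjusted p under 0.05. Striatal genes climb to the upper right, 20 of 22 higher calls lie at or beyond 1 on the horizontal axis, and the lowest points are olfactory bulb genes such as Lgr5 and Eomes.

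Myelin and striatal genes thus made up 14 of the 22 higher calls and 0 of the 54 lower calls, beside 0.719% of all genes tested. At so small a share, 0 of 54 is not unusual. When all genes of the myelin and striatal lists and of either gradient were set aside, 29 of the 76 calls were left, 2 higher and 27 lower. Of all 11956 genes tested, 10409 were left. Genes that lack a gradient value were kept, and only 46 of the 54 lower calls have both values. With p-values adjusted anew over the 10409 genes left, 18 of the 29 were called, 1 higher and 17 lower. With the olfactory bulb and meningeal lists set aside too, 12 of 10391 were called, 1 higher and 11 lower. Acss2 was among them in both cases, with an adjusted p of 0.000858 in the first and 0.000856 in the second.

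Adding a library's score as a term of the model gave shorter lists for all scores tried but the astrocyte score. With the myelin score 2 genes were called, with the striatal score 0 and with both 1, none of them among the 76. With the scores of the lists written later there was 1 gene called for the olfactory bulb score and 1 for the meningeal score. The astrocyte score gave 114 genes, 42 of them among the 76. Acss2, the deleted gene, missed the threshold in each of those shorter fits. Its log2 fold change stayed between -2.03 and -2.48 there and its adjusted p ran from 0.160 to 0.916. A gene known to be changed was therefore not called, and in these 7 libraries the scores and the genotype cannot be told apart. For the striatal score 791 genes had an unadjusted p under 0.05, and the median of the striatal lists went from 1.13 to -0.13. For the myelin score 551 genes did, and the myelin median went from 1.05 to 0.07. Each score is the mean level of its own lists in these same libraries. The fall of a list's own median was therefore set in advance, and nothing is drawn from it.

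**Figure D5:**
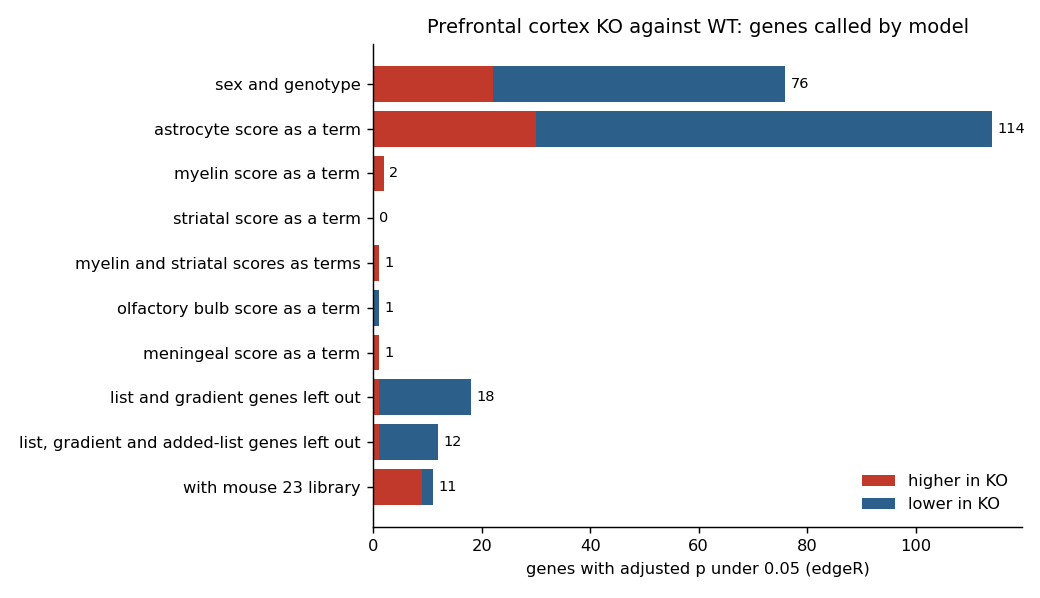
Number of genes with an adjusted p under 0.05 in edgeR's quasi-likelihood test, split into higher (red) and lower (blue) in KO, for the model with sex and genotype and for models with an added score, fewer genes or the library of mouse 23. The bars start at 0 and each total is printed beside its bar; the count goes from 76 to between 0 and 2 with the myelin, striatal, olfactory bulb or meningeal scores, and to 18 or 12 when listed and gradient genes are set aside.

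Of the 76 calls, 29 were in no myelin or striatal list and were not found to pass a gradient threshold, 2 higher and 27 lower. Of all genes tested, 87.1% passed no gradient threshold, so that both directions held fewer such genes than the background. The 29 can include lower calls without a gradient value, since 46 of the 54 lower calls have both values. Without the 4 libraries against their region label, 2 higher and 25 lower calls passed neither threshold, beside 85.4% of all genes. Apart from Acss2, Cdhr1, Slc6a13, Omp and Synpr, the members of the 29 with the smallest p were carriers of glia and a neuronal secreted protein. Slc38a3, a glutamine carrier of astrocytes, was at 43.9, 49.6, 56.8 and 61.8 CPM in KO and at 112, 156 and 80.5 CPM in WT (-1.34 ± 0.19, adjusted p = 0.0039, edgeR), but at 40.4 CPM in mouse 23. Slc7a11, the cystine and glutamate exchanger, was at 34.2 to 52.4 CPM in KO and at 88.9 to 92.2 CPM in WT (-1.14 ± 0.19, adjusted p = 0.0163), and at 50.2 CPM in mouse 23. In mouse 23 the value of Slc38a3 thus lay below all KO libraries and that of Slc7a11 within their range. Nxph3, a neurexin ligand of deep cortical layers, was the 1 higher call that remained in both reduced lists, at 68.5, 133, 97.7 and 83.0 CPM in KO and 5.66, 4.08 and 28.6 CPM in WT (2.93 ± 0.47, adjusted p = 0.0137). It was at 52.6 CPM in mouse 23, and had an adjusted p of 0.0898 with that library. Gm40518, a predicted gene that is higher in striatum than in cortex and so not among these, was at 8.78 to 21.2 CPM in KO against 0.82 to 2.12 CPM in WT (adjusted p = 0.0323, and 0.0898 with mouse 23).

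In the pathways nearest to ACSS2 few genes were called beyond the deleted one, though smaller changes can be missed in 7 libraries. Of 18 enzymes and carriers of acetate and acetyl-CoA tested, Acss2 alone changed, and the median of the list was 0.016. Its mitochondrial relative Acss1 was at 20.1 to 39.1 CPM in KO and 16.99 to 38.1 CPM in WT, with a log2 fold change of 0.0034 ± 0.31, and Acly, which makes acetyl-CoA from citrate, had 0.13 ± 0.15. Both were named after their values were seen. Of 8 genes of ethanol and acetaldehyde oxidation, Aldh1a1 fell, at 4.39, 6.34, 14.2 and 11.4 CPM in KO and 35.9, 27.8 and 26.5 CPM in WT (-1.83 ± 0.37, adjusted p = 0.0357, edgeR). It was at 15.9 CPM in mouse 23, and the adjusted p was 0.115 with it. Aldh1a1 also makes retinoic acid and is a gene of dopamine neurons and of vessels and meninges. Sterol and fatty acid synthesis genes had 24 of 28 above 0, beside 6092 of all 11956 genes tested, with no call and a median of 0.16. The CPM ranges did not overlap for 3 of the 28, all higher in KO, beside 3.98% of all genes. Their mean level overlapped, at 5.99 to 6.30 log2 CPM in KO and 5.88 to 6.02 in WT. The largest evidence was for Sqle, squalene epoxidase, at 0.60 ± 0.19 (adjusted p = 0.217, edgeR). Genes of histone acetylation had 14 of 25 above 0, no call and a median of 0.018, and activity-induced genes 9 of 21 above 0, no call and a median of -0.052. In these 2 lists the members with the smallest p were Hdac9 at -0.62 and Jun at 0.36.

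The cortex was sampled in 11 libraries, 7 of them from mice that also gave a prefrontal cortex library. A test of whether the KO effect differed between the regions called 19 of 11818 genes (0.161%), 4 higher (0.0338%) and 15 lower (0.127%) in the prefrontal cortex. With the mouse as a block 9 were called, of which 7 were among the 19. With mouse 23 1 gene was called, and the count was 5 without mouse 4, 5 or 11, 1 without mouse 6, 7 without mouse 13, 2 without mouse 24, 10 without mouse 10 and 98 without mouse 12. Ppp1r1b had the smallest adjusted p, at a difference of 2.42 ± 0.38 (adjusted p = 0.00725, edgeR), and Ptgds the next, at -2.14 ± 0.35 (adjusted p = 0.00811). No gene was called lower with mouse 23 or without mouse 6, Ptgds included, and none was called higher without mouse 11, Ppp1r1b included. Of the lists, the striatal genes had a median difference of 1.09 with 2 of 36 called, the myelin genes 0.94 with 0 of 47, and the meningeal genes, listed after the calls were seen, -1.85 with 6 of 17. The KO effect on Acss2 did not differ beyond its error between the regions (0.50 ± 0.38, adjusted p = 0.804).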

How the data were processed

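The unit deposited by the authors is the raw count of reads for a gene symbol. There is 1 table for each sex, with 55367 symbols in both. The submitters' processing notes name STAR 2.5.2a, SAMtools 1.1, HTSeq 0.6.1, DESeq2 and R 4.0.2 and the builds GRCm38 and mm10, without roles. The input was 300 ng of RNA and the kit one that does not mark strand, per the labels' protocols, so reads of overlapping antisense genes cannot be told apart. Positions come from GENCODE M21 (53186 symbols matched). The 7 libraries were fitted together in edgeR 4.0.16 (limma 3.58.1, R 4.3.3) with sex and genotype as terms, TMM normalization and filterByExpr (minimum count 10, minimum total 15). Adjustment was by Benjamini and Hochberg's method across every gene tested, with a threshold of 0.05. Effects within sexes and their difference came from a fit with a mean for each sex and genotype. Scores are means of log2 CPM with a prior count of 2. Counting intervals are exact, at 95%, and hold for counting error alone, as PCR copies were not marked.

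Named genes were Acss2, the 12 largest changes in each direction among calls with a mean of at least 5 CPM and no overlap, the 3 most abundant members of each myelin and striatal list, the member of each other list with the smallest p, the 8 calls with the smallest p outside the lists and gradients, the 2 leading genes of each interaction with calls, and Xist and Ddx3y. Outside this rule, and named after their values were seen, are Foxp2, Mog, Tmem88b, Rasgrf2, Acss1, Acly, Cnp, Slc17a7 and Tbx21. Some genes that the rule names are not reported here. The members and lists were chosen with earlier results of these data known. On data simulated for the 7 libraries with 200 changed genes among 11593, 55 of 100 genes at a log2 change of 1 and 91 of 99 at 2 were called, with 6 false calls. Within females these were 22 and 69, and within males 19 and 70. The simulation drew each gene independently, without tissue differences that many genes share, so its rates need not hold for the real libraries. Mouse numbers link a prefrontal cortex to a cortex library of the same animal. The correlation of their deviations ran from -0.10 to 0.21 over 7 pairs. DESeq2 1.42.0 was an alternative test.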

Additional observations from a re-analysis of the deposited data

Results flagged for a closer look

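In KO mouse 4, Acss2 was at 12.7 CPM, or 12 counts. The other KO libraries were at 7.10 to 7.91 CPM, or 8 to 9 counts. The gap stands apart within the 4 KO values but amounts to a few counts. Lgr5 was at 2.11 CPM and Ms4a15 at 1.06 CPM in KO mouse 4, which is 2 counts and 1 count. Both were at 0 in the other 3 KO libraries. Of 80 values screened in this way 3 stood apart, and chance alone gives about 1 in 20.

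The KO effect differed between prefrontal cortex and cortex for Ppp1r1b, by 2.42 on the log2 scale (adjusted p = 0.00725, edgeR), and for Ptgds, by -2.14 (adjusted p = 0.00811). The striatal list, which holds Ppp1r1b, and the meningeal list, which holds Ptgds, moved with them, at median differences of 1.09 and -1.85. Their part in the result was not tested. Ptgds was not called with mouse 23 or without mouse 6, where 0 genes were lower, nor Ppp1r1b without mouse 11, where 0 were higher.

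The library labelled as female WT mouse 23, which enters no main comparison, held 73.4 CPM of the Y-linked gene Ddx3y and no Xist.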

How the results depend on the processing

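The count of 76 genes for KO against WT was within 1.5 times under DESeq2's size factors, a mean of at least 10 counts, DESeq2's own test, no sex term, length and GC offsets and the astrocyte score. The genes called differed more than their number. Among the 76 were 52 of the 71 calls of DESeq2's test, 54 of the 101 with no sex term and 42 of the 114 with the astrocyte score. All 75 calls under size factors and all 60 under the mean of 10 counts were, and 74 of the 87 with offsets. It was 418 with no filter on low counts, 11 with mouse 23 and 37 with mouse 23 and no sex term, 2, 0 and 1 with the myelin score, the striatal score and both, 1 with each of the olfactory bulb and meningeal scores (chosen after seeing the data), 18 without listed and gradient genes and 12 without the later lists as well (chosen after seeing the data). Leaving out 1 library gave 0 to 304. Calls in the myelin lists were 17 with no sex term and 1 with mouse 23, and 0 to 24 without 1 library, with medians of 0.20 to 1.74. Calls in the striatal lists were 7 with mouse 23 and 0 to 16 without 1 library.

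Within females the count of 105 was 352 with no filter, 62 with DESeq2 and 32 with mouse 23, and 37 to 318 without 1 library. Within males the count of 0 was 119 with no filter and 0 to 195 without 1 library. For the difference between the sexes it was 33 with no filter and 6 with DESeq2, and 0 to 33 without 1 library. For prefrontal cortex against cortex the count of 19 was 189 with no filter, 9 with the mouse as a replicate block and no sex term, 1 with mouse 23 and 1 to 98 without 1 mouse, with 5 without mouse 4, 5 or 11. The share of variance taken up by both gradients was 1.09% to 15.1% without 1 library.

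A direction reversed only with an added score: Scn4b was at -0.10 with the striatal score and -0.043 with both; Lgr5 at 1.22, Ms4a15 at 0.27 and Shisa3 at 0.23 with the meningeal score; Frmd7 at 0.69, Shisa8 at 0.20 and Th at 0.22 with the olfactory bulb score and at 1.92, 1.07 and 0.23 with the meningeal score. The cause was not tested. The Acss2 fold change lay between -2.77 and -2.03 over 23 alternatives and passed the threshold in 17 of them. Totals of 944634 to 1228828 counts per library and 1 library in each of 2 sex and genotype groups limit these results.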
